A study of Drosophila melanogaster with 2 samples.

Results

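Rfx and cwo are neighbouring genes on chromosome 3R of Drosophila melanogaster, and the deposited peak lists were searched for binding of the Rfx protein at its own gene and at cwo. Members were all peaks with a summit inside either gene or within 5 kb of it, read from 4 lists of ranked peaks and the 4 thresholded sets drawn from them. The ranked list of the series held 38 such peaks of 106763 on the 7 chromosome arms, 25 at Rfx and 13 at cwo, and these are 2 of 13968 protein-coding genes. Both libraries formed 1 group, biological replicates 1 and 2 of chromatin immunoprecipitation sequencing. The material was whole Drosophila embryos of the strain Rfx-GFP, aged 0 to 24 h, which carried an Rfx-eGFP fusion. Chromatin was sonicated and the fusion pulled down by its GFP tag, although the antibody field names Rfx; the control library was not analysed here. The labels name an insertion that targets Rfx and do not say which stretch of the gene it carries, and no condition was contrasted. Any extra copies of this DNA and binding therefore cannot be told apart in the signals and peak densities at the locus. The embryos pool all cell types and all stages of embryogenesis, so a peak cannot be placed in a cell type, and fewer bound cells cannot be told apart from weaker binding per cell.

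RFX proteins are transcription factors with a winged-helix DNA-binding domain. They bind the X-box, a palindrome of inverted arms, and are known in the fly for switching on genes for the cilia of sensory neurons. The gene cwo, clockwork orange, encodes a basic helix-loop-helix repressor of the Orange family, which acts in the circadian clock by binding E-boxes at genes that the activators Clk and cyc also bind.

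Rfx (FBgn0020379) ran from 10361760 to 10378068 on the minus strand of 3R (dm6), and cwo (FBgn0259938) from 10388258 to 10400752 on the plus strand. The genes point away from each other, with 10190 bp between the upstream Rfx start at 10378068 and the cwo start at 10388258. Rfx has another annotated transcription start site (TSS) at 10367479, inside the gene, used by 2 of its transcripts, while 4 use the upstream one. The windows also took in parts of jumu, which encodes a forkhead transcription factor, lncRNA:CR44938 between the genes, mthl11, which encodes a receptor of the Methuselah-like family, and CG6325.

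The sequences below are those of the 3 passing Rfx peaks with an X-box arm within 100 bp of the summit, and of the strongest cwo peak for comparison. Each is the plus strand of dm6 from the RefSeq genome, 5′ to 3′, within 50 bp of the summit, and none is annotated as UTR. Capitals mark the X-box arm, GGCAAC on either strand, and the closest match to the full palindrome GTTGCC, a spacer of 0 to 3 bases and GGCAAC, where it differed at no more than 2 of its 12 arm bases.
Rfx intron next to an exon, chr3R:10365450-10365550: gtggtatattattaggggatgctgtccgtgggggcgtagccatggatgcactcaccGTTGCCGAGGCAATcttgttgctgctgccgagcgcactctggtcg
Rfx intron, chr3R:10368419-10368519: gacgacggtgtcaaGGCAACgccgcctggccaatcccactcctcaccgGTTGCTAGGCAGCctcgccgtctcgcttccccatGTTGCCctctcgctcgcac
Rfx promoter, chr3R:10378097-10378197: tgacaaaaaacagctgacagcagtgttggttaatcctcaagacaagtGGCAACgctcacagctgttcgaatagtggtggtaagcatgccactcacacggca
cwo intron, chr3R:10393845-10393945: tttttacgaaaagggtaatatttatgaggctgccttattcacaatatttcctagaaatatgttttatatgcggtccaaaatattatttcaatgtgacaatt

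Each peak carries 2 values of the authors. Its signal is the value by which the files describe peak strength; no label gives its scale, so it was compared within a list only. Its score restates the irreproducible discovery rate (IDR), which is low for peaks that rank alike in the compared inputs. A score of 830 corresponds to an IDR of 0.01, or 2 on the -log10 scale, and is the lowest in every thresholded set. A peak is called passing here at that score, kept if it overlaps the thresholded set drawn from its list by at least 1 bp, and left out otherwise.

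Rfx-eGFP peaks were kept in introns of both genes, while the peaks at the promoters of both genes passed the score and were left out. Of the 38 ranked peaks of the series list, 12 passed, against 8.87% of ranked peaks on all arms. The passing peak nearest the threshold scored 848, and the highest below it, in an exon of jumu, scored 817. Of the 12, only 4 were kept, 2 at Rfx and 2 at cwo, and 8 were left out, 5 at Rfx and 3 at cwo. Over all arms 2.33% of passing peaks of this list were left out. All 4 kept summits of the series list lay in introns of Rfx or cwo, and 0 of them lay within 500 bp of a TSS of either gene.

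**Figure D1:**
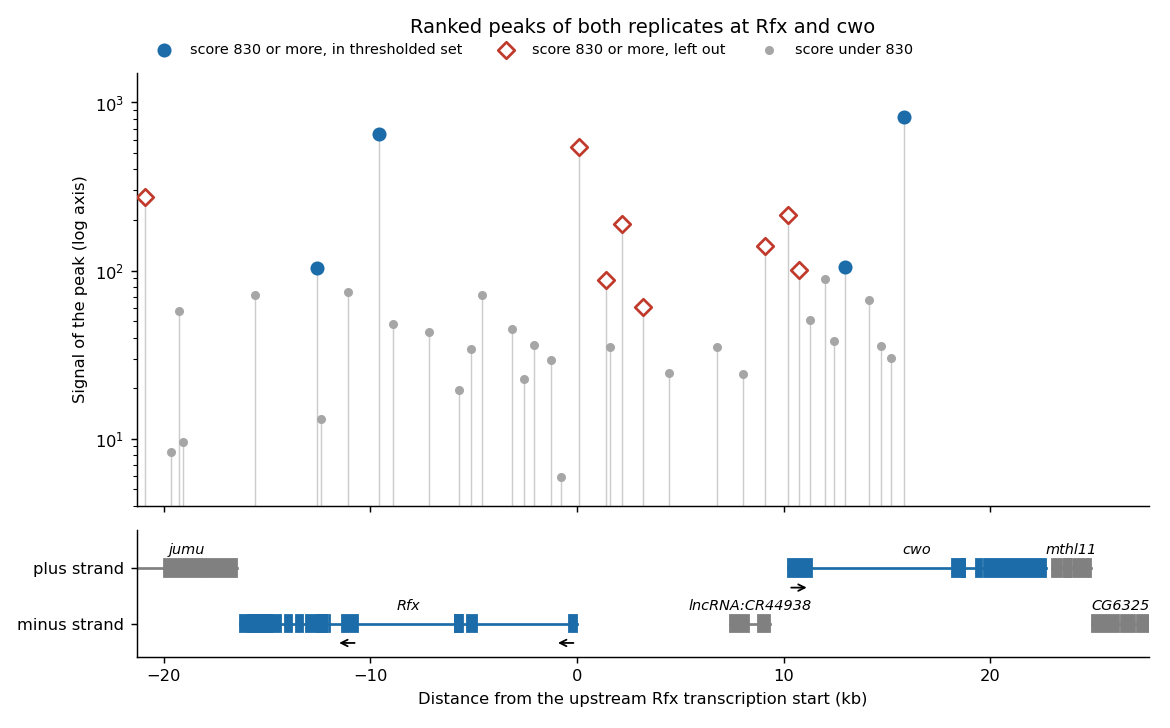
Signal (log axis) of the 38 ranked peaks of the series list against distance from the upstream Rfx start in kb, with the annotated genes below (boxes are exons, arrows the starts of Rfx and cwo). Filled circles are the 4 kept peaks, open diamonds the 8 passing peaks that were left out, and grey points the 26 peaks under a score of 830; the left-out peaks include those at both promoters.

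The 2 kept peaks of Rfx differed widely in strength. The stronger ran from 10368335 to 10368620, with its summit at 10368469 in an intron, at -990 bp from the internal Rfx TSS. Its signal of 645.5 in the series list stood at percentile 95.4 of all 9247 kept peaks. It was kept in all 4 thresholded sets, with signals of 178.5 in replicate 1 and 471.9 in replicate 2. Within the kept peaks of each replicate these were percentiles 76.1 and 98.1, or 87.1 ± 15.6 (SD, n = 2), so replicate 2 ranked it far higher than replicate 1 did.

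The weaker kept Rfx peak (10365328 to 10365671) had its summit at 10365500, in an intron close to an exon, 1979 bp downstream of the internal TSS. Its signal of 103.0 was at percentile 41.0 of the kept peaks of the series. Replicate 1 kept it at percentile 11.6, with its summit at 10365512 in an exon of Rfx. The ranked lists of replicate 2 and of the conservative set held no peak at the series summit. This peak therefore rests on replicate 1 and on the series-level list alone.

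The left-out peak at the upstream Rfx promoter was weaker than the stronger kept peak in the series list and in replicate 2, and stronger than it in replicate 1. It ran from 10378037 to 10378251, with its summit at 10378147, at -79 bp from the TSS, and had a signal of 544.0. That value would stand at percentile 93.6 of the kept peaks. Its score was 1000 in all 4 ranked lists, with signals of 226.9 in replicate 1 and 302.5 in replicate 2, at percentiles 83.4 and 95.4, or 89.4 ± 8.53 (SD, n = 2). The replicate percentiles of this left-out peak lay within those of the stronger kept peak.

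Further upstream of Rfx, 3 more intergenic peaks passed in the series list and were left out. The peak with its summit at -2183 bp had a signal of 190.0 (percentile 70.4 of the kept peaks), passed in all 4 lists, and stood at 52.0 ± 8.01 (SD, n = 2) in the replicates. The peaks at -1393 bp (signal 87.5) and -3179 bp (60.4) were under the score in both replicates. The peak at -1393 bp passed in both series-level lists. The peak at -3179 bp passed in the series list alone, at a score of 848, and scored 88 in the list of the conservative set. The remaining left-out peak of the Rfx window lay in an intron of jumu, 10305 bp downstream of the internal Rfx TSS, with its summit at 10357174 and a signal of 274.4. It passed and was left out in all 4 lists, at 75.0 ± 7.98 (SD, n = 2) in the replicates.

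At cwo the strongest peak lay deep in an intron and was the most even between the replicates. It ran from 10393764 to 10394011, with its summit at 10393895, 5637 bp downstream of the TSS, and its signal of 814.5 (percentile 97.1) was the highest of both windows. It was kept in all 4 sets, with signals of 509.2 in replicate 1 and 317.0 in replicate 2, at percentiles 96.0 and 95.8, or 95.9 ± 0.104 (SD, n = 2). The other kept cwo peak of the series, 2761 bp downstream of the TSS (10390847 to 10391190), had a signal of 104.6 (percentile 41.98). Replicate 2 kept it at percentile 64.8, and replicate 1 listed no peak at its summit. A further intronic peak, 7289 bp downstream of the TSS with a signal of 56.0, was kept in replicate 2 alone and was absent from the other 3 ranked lists.

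The cwo promoter had a left-out peak in every list. Its summit at 10388291 lay 33 bp downstream of the cwo TSS, in the 5′ UTR, with a signal of 215.1 in the series list (percentile 74.7 of the kept peaks). It stood at percentile 25.01 in replicate 1 and 82.5 in replicate 2, a spread of 53.7 ± 40.6 (SD, n = 2). A peak 561 bp downstream of the TSS (signal 101.4) passed in replicate 2, at percentile 67.7, and was under the score in replicate 1, at percentile 1.64. The peak at -1098 bp (signal 139.4) lay in an exon of lncRNA:CR44938, 225 bp from the TSS of that RNA. It passed at percentile 78.5 in replicate 2 and had no counterpart in the ranked list of replicate 1. These 3 cwo peaks ranked higher in replicate 2 or were listed there alone, whereas the peak 5637 bp downstream ranked alike in both. Of the 4 kept series peaks, 2 were found in both replicates' thresholded sets, against 49.6% of all kept peaks.

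**Figure D2:**
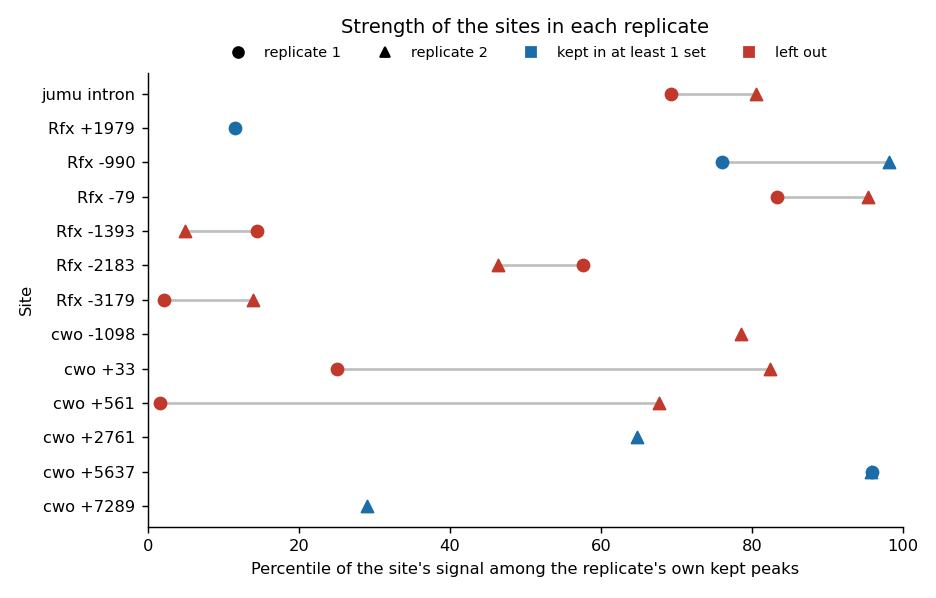
Percentile of the signal of each of the 13 sites among the kept peaks of replicate 1 (circles) and replicate 2 (triangles), blue where at least 1 thresholded set kept the site and red where it was left out. Sites are named by gene and distance in bp from its nearest TSS; the cwo site at 561 bp spans percentiles 1.64 and 67.7, while the cwo site at 5637 bp has 96.0 and 95.8, and a missing mark means that the replicate listed no peak there.

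The lists did not conflict over which sites were kept. Passing peaks of the 4 ranked lists merged into 13 sites, of which 5 were kept in at least 1 set and 8 were left out in at least 1. Of these, 11 passed in 2 or more lists and could differ in status, and 0 of the 11 were kept in 1 list and left out in another. Over all arms such a mismatch was rare too, at 3 of 221 left-out peaks of the series list. The 4 sites left out in all 4 lists were the jumu intron, the Rfx promoter, the Rfx site at -2183 bp and the cwo promoter, and the 2 kept in all 4 were the strongest intronic peaks of Rfx and cwo. In the list matched to the conservative set 7 of 31 ranked peaks passed, against 7.93% on all arms, and 5 of the 7 were left out, against 2.45%. In replicate 1, 7 of 29 passed, against 8.04%, and 4 were left out, against 2.51%. In replicate 2, 10 of 38 passed, against 8.3%, and 6 were left out, against 2.74%. The series-level lists name both replicates' alignments among their inputs, so the 4 lists are not independent.

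**Figure D3:**
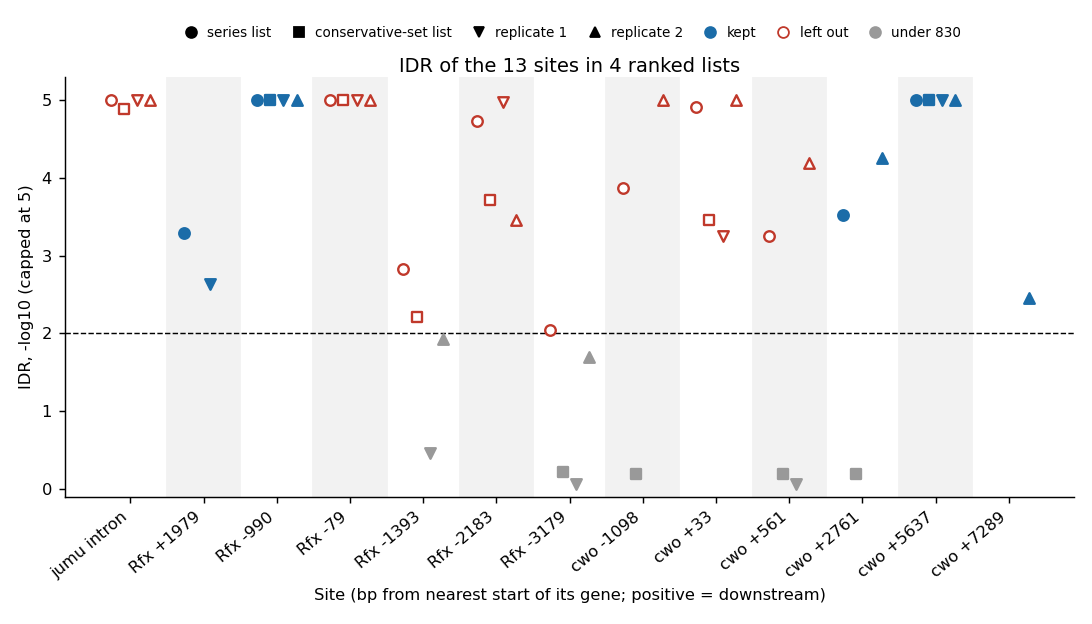
IDR on the -log10 scale, capped at 5, of the 13 sites in 4 ranked lists, with a dashed line at 2 (a score of 830). Filled blue marks were kept, open red marks were left out and grey marks did not pass; red and blue never share a site, and the left-out Rfx promoter reaches the cap in all 4 lists.

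The left-out peaks lay side by side. From 10378037 to 10388990, a stretch of 10954 bp between both promoters and just past the cwo start, 7 passing peaks lay in a row and all were left out. The nearest kept summits were 9678 bp away on the Rfx side and 2200 bp away on the cwo side. A separate run of 8 left-out peaks ended at 10357219 in jumu. Over all arms there were 81 such runs without a kept summit between their peaks, lone peaks included, and by number of peaks the run between the promoters ranked 6th and the jumu run tied for 3rd with 2 others. Most of the 81 runs lay on 3R, so such runs are a trait of that arm as well as of this locus. The signals of left-out peaks at both genes spanned 60.4 to 544.0 and those of kept peaks 103.0 to 814.5. Per the notes deposited with the files, the thresholded sets list 1 input more than the ranked lists do, of a kind not stated. The notes do not say whether it names regions to exclude, so being left out cannot be read as weak or absent binding at these promoters; its part in the result was not tested.

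Few genes over all arms had left-out peaks of this kind. Most runs of left-out peaks lay on 3R, the arm of both genes, and shares for 3R alone were not computed. A passing left-out summit inside the gene or within 5 kb was found for 1.7% of protein-coding genes, 3 or more, as at cwo, for 0.473%, and 5 or more, as at Rfx, for 0.186%, or 26 genes. Having 2 or more kept summits in that window was common, at 45% of genes, and 68.6% had at least 1. Within 500 bp of a TSS, 35.4% of genes had a kept summit and 0.773%, or 108 genes, a left-out one. Rfx and cwo were among these 108, 18th and 41st of the 108 by signal, and neither had a kept summit there. Genes whose passing promoter summits were all left out, as at Rfx and cwo, made up 0.709%.

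Passing peaks were denser here than over the genome, while ranked peaks were not, and the part of any extra copies from the insertion was not tested. The windows held 7.76 ranked peaks per 10 kb, the same as the 7.76 over all arms, but 2.45 passing peaks per 10 kb against 0.688. Most of that excess was left-out peaks, since kept peaks numbered 0.816 per 10 kb in the windows against 0.672 over all arms. Within 50 kb either side of the middle of the locus there were 2.7 passing peaks per 10 kb, and within 500 kb 1.14. No ranked peak of the series list had its summit in the last 11857 bp of the cwo window, which hold the 3′ part of cwo, mthl11 and part of CG6325. Replicate 2 did list peaks there, among them the kept one 7289 bp downstream of the cwo TSS.

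The strongest Rfx peaks held X-box arms, but no full palindrome lay near a passing summit. The 3 strict X-boxes of the Rfx window, a looser form described below, lay outside every ranked peak of the series list. An arm, GGCAAC on either strand, lay within 100 bp of 3 of the 7 passing summits of Rfx and 1 of the 5 of cwo, against 13.2% of kept summits over all arms. The Rfx summit at -990 bp had 3 arms, starting at -58, -36 and 32 bp from the summit, and between them GTTGCTAGGCAGC, at -2 bp. That match has a spacer of 1 base and differs from the palindrome by C6T and A12G, counted from 1 at its 5′ end with the palindrome's base first. The Rfx promoter summit had arms starting at -3 and 47 bp. The peak 1979 bp downstream of the internal TSS held GTTGCCGAGGCAAT, 6 bp from its summit in an exon, with a spacer of 2 bases and 1 difference, C14T. A palindrome with no more than 1 difference was found at 0.735% of kept summits, with no more than 2 at 3.63% and with no more than 3, as at the Rfx promoter, at 22.6%. The degenerate X-box was at 3 of the 12 passing summits, against 19.2%, and the full palindrome at 0, against 0.119%. Neither kept cwo peak of the series, the strongest of both windows included, had an arm or a degenerate X-box there. Their closest palindrome matches each had 5 differences. The kept Rfx peaks were rich in G and C, at 61.6% and 63.3% of their bases against 39.5% and 29.8% in the kept cwo peaks and a median of 39.8% over all kept peaks; the part of base composition in these matches was not tested.

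A strict X-box, which allows the changes listed in the methods, lay within 100 bp of 0 of the 12 passing summits, against 0.757% of kept summits. The Rfx window held 3 strict X-boxes, or 1.14 per 10 kb against 0.221 over all arms, and the cwo window held 0. The sequence GTTGCTAGGCAAC (10377901 to 10377913) lay in the 5′ UTR 161 bp downstream of the upstream Rfx TSS, at -240 bp from the left-out promoter summit, outside that peak. The sequence GTTGCTTCTGGCAAC (10367784 to 10367798) lay in an intron at -312 bp from the internal TSS, and at -678 bp from the nearest ranked summit, that of the strong intronic peak. The remaining one, GTTACTGGTTAC, was in the 3′ UTR at 10363083 and in no ranked peak. The labels give chromatin fragments of 200 to 800 bp, so a site just outside a called peak cannot be called unbound.

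E-boxes, the kind of site that the cwo protein binds, were frequent at both genes. The letters CACGTG occurred 15 times in the cwo window, or 6.67 per 10 kb, and 7 times in the Rfx window, or 2.66 per 10 kb, against 1.22 over all arms. Inside ranked peaks lay 8 of the 15 at cwo and 5 of the 7 at Rfx, together 59.1% of the E-boxes, while ranked peaks covered 25.1% of the windows. Some of these E-boxes recur at the same spacing. Those starting at 10382366, 10382509 and 10382595 are spaced like those at 10385977, 10386120 and 10386206. They cannot be counted as independent sites, and whether this stretch is repeated was not tested. Inside passing peaks lay 1 at cwo and 2 at Rfx, or 13.6%, while those peaks covered 7.58%, and all 3 of the peaks were left out. Within 100 bp of a passing summit there was 1 E-box among the 12, against 2.28% of kept summits, at the left-out Rfx peak at -1393 bp. Of the other motifs searched, DREF (TATCGATA), Zelda (CAGGTAG) and Motif 1 were at 0 of the 12, against 4.82%, 1.04% and 1.71% of kept summits. The BEAF-32 letters CGATA were at 2, against 31%, and GAGAGAG was at 1, the cwo promoter, against 4.82%. These matches were all at left-out peaks. Among the 221 left-out summits over all arms, CGATA was at 29.4% and GAGAGAG at 9.95%. The E-box was at 3.17% of them and the X-box arm at 17.6%.

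**Figure D4:**
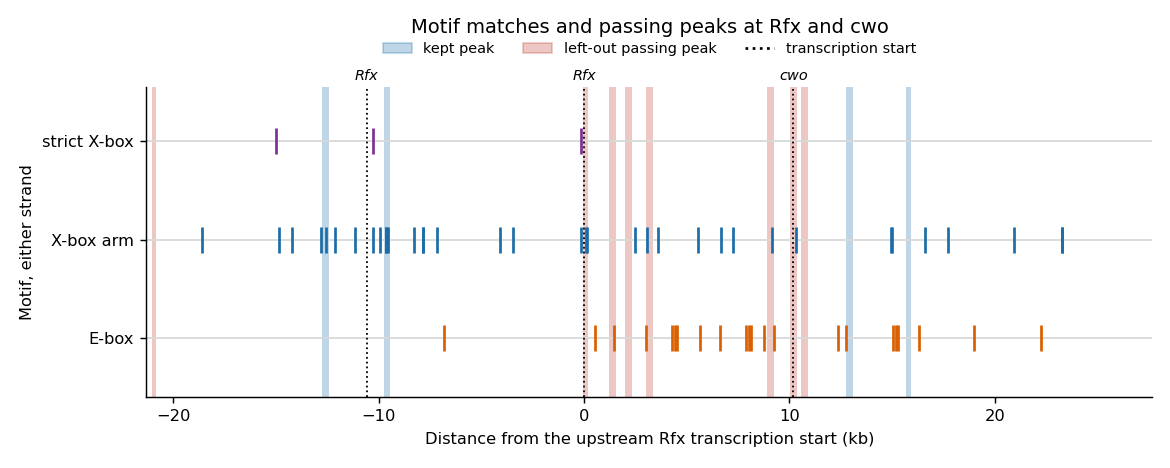
Matches to the strict X-box (3), the X-box arm and the E-box on either strand, as vertical marks, against distance from the upstream Rfx start in kb; shading shows kept (blue) and left-out (red) passing peaks and dotted lines the TSSs. The strict X-boxes lie outside all shaded peaks, arms lie in both kept Rfx peaks, and E-boxes gather between the genes and in the cwo intron.

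Of the 14 genes of the circadian clock, 1 had a left-out summit within 500 bp of a TSS, cwo itself, against 0.773% of all protein-coding genes. A kept summit there was found for 7 of the 14, against 35.4%. The strongest were those of the kinase genes sgg, with a signal of 781.4, and dco (706.0), which act on the clock proteins tim and per. Pdp1 (235.7) and vri (133.0), which encode regulators of Clk, CkIIbeta (184.2), a kinase subunit, slmb (111.1), part of a ubiquitin ligase, and tim (72.7) also had one. The activator genes Clk and cyc had no kept promoter peak but 1 kept summit each in the wider window, as did jet. The repressor gene per, the photoreceptor gene cry and CkIIalpha had none in either window.

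Of 12 matched bHLH-Orange genes, the family of cwo, 2 had a kept promoter peak, against 35.4% of all protein-coding genes, and 7 had a kept summit inside the gene or within 5 kb, against 68.6%. Those with a promoter peak were E(spl)m3-HLH (signal 305.3), a Notch target, and hry (87.4), the pair-rule gene hairy. Sidpn, E(spl)mbeta-HLH, E(spl)m7-HLH and E(spl)m8-HLH had 3, 1, 2 and 3 kept summits in the wider window but none at a TSS, while dpn, Hey, E(spl)mdelta-HLH, E(spl)mgamma-HLH and E(spl)m5-HLH had none in either. The forkhead gene fd3F, whose product works with Rfx in sensory neurons, had 1 kept summit within 5 kb and none at a TSS. The proneural gene ato, which acts upstream of Rfx, had none in either window. Rfx was the only gene whose symbol begins with Rfx.

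By strongest peak alone, other genes came close to both, but with so many genes compared a close match says little about either. Over 12015 protein-coding genes with a ranked peak in all 4 lists, the closest to Rfx were Spn38F, CG31674 and CG31673 on 2L, at a distance of 0.194 percentile points, which have identical values and tie with 1 more gene. The closest to cwo were Pis, CG9240 and CG8128 on X, with identical values at 0.0149. In both cases the named genes are neighbours whose windows overlap. Their identical values may come from a shared peak, which was not checked. The percentiles were taken among ranked peaks for the strongest peak of each list, left-out peaks included. Rfx had 99.6 in the series list and 99.8 in replicate 2 with its intronic peak, and 98.7 in replicate 1 with its left-out promoter peak. With its intronic peak cwo had 99.7 in the series list, 99.7 in replicate 1 and 99.6 in replicate 2.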

How the data were processed

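Peaks were called by the authors and ranked by IDR; the build is dm6 per the labels, and no aligner or peak caller is named in them. The deposited signal is on an unstated scale, the deposited score restates the IDR up to 1000, and the ranked lists also give it as a deposited -log10 column, which is shown and not tested; 16 columns of compared inputs in the series ranked lists were not used. The files hold no read counts, so depth is unknown. Positions are 1-based. Peaks on unplaced scaffolds were not used. Each ranked list was paired with the thresholded set whose peaks it holds. Percentiles are shares of kept peaks of the same list at or below a signal.

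Annotation was Ensembl release 115 (BDGP 6.54) and the sequence NCBI Release 6, the same assembly; all peak ends lay within its arm lengths. Motifs were matched without mismatch on both strands within 100 bp of a summit. The strict X-box has a spacer of 0 to 3 bases and arms each with 1 free and 1 purine-only position; the degenerate one allows more changes. GAGAGAG and CGATA may overlap other motifs. Python 3.11.15, numpy 2.4.6, pandas 2.3.3 and matplotlib 3.10.9 were used, and the scripts were tested on simulated peaks. With 1 group of 2 replicates no test was run. The members, lists and motifs were chosen with earlier results of these data known. Genes named are Rfx, cwo, genes in their windows, members of the clock, bHLH-Orange, RFX and partner lists and the 3 genes nearest in pattern, by distance over 4 ranked-list percentiles. Side, of the 13 bHLH-Orange names, had no single match; h matched as hry.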

Additional observations from a re-analysis of the deposited data

How the results depend on the processing

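The 2 kept peaks at Rfx and 2 at cwo were the same in number with no flank, with flanks of 2 or 10 kb, at a score of 1000 and by any overlap; the conservative set held 1 at each gene. Leaving out a replicate gave 1 to 2 at Rfx and 1 to 3 at cwo. Counting left-out passing peaks, an alternative chosen after seeing the data, gave 7 at Rfx and 5 at cwo. The strongest kept Rfx peak ranged from percentile 76.1 without replicate 2 to 98.1 without replicate 1. The strongest kept cwo peak ranged from 95.8 to 96.0 in single replicates and was at 96.2 in the conservative set, against 97.1. The 8 left-out peaks numbered 14 at a score of 540, where every added peak is left out by construction, and 5 in the list of the conservative set, and 4 to 6 in single replicates. Both kept peaks found in the 2 replicates remained 2 under the 3 alternative rules for a match. No kept peak had a strict X-box (0); 2 had the degenerate one, 2 a single arm, and 1 a palindrome with up to 1 mismatch, chosen after seeing the data. Of 25 clock and bHLH-Orange genes, 9 had a kept promoter peak and 17 a kept peak inside the gene or within 5 kb, with 7 to 8 promoter peaks in single replicates. No paired analysis was possible because there was 1 group and no test. Depth was unknown, so no detection limit can be given for a peak missing from a list.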
